A study of Homo sapiens with 6 samples.

Results

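Caspases are cysteine proteases that carry out programmed cell death and inflammatory cell lysis. The 8 genes described here are CASP8 and CASP10 (initiators recruited to death receptors), CFLAR (the inhibitor that sits in the same complex), CASP9 (the initiator of the mitochondrial pathway), CASP2 (the initiator of the PIDDosome), CASP6 (an effector), and CASP1 and CASP4 (the inflammatory caspases). They were selected by gene symbol, and all 8 were found among the 58735 genes of the deposited table. All 8 also had enough counts to be tested, among 13822 tested genes. The data were read counts per gene from RNA sequencing libraries. The cells were MOLM-13, a line from a human acute myeloid leukaemia with a KMT2A fusion, and their genotype is labelled wild type. Cells were exposed to 8p at 3.5 nM (n = 3) or were untreated controls (n = 3), and both groups were incubated for 48 hours. The submitters call 8p a synthetic dual inhibitor of the kinase RET and of CDK kinases, which a sample label narrows to CDK8, and they give its IC50 as 7 nM. Whether controls received the solvent of 8p is not stated, so that the compound and any solvent cannot be told apart. Every sample is of the same cell line.

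Death receptors such as FAS and the TRAIL receptors gather the adaptor FADD and, through death effector domains, CASP8 and CASP10, which cut and activate each other there. CFLAR, also called c-FLIP, joins the same assembly; it has the caspase fold without a working active site, and its long form pairs with CASP8 and limits or shapes its activity. CASP9 is activated on the APAF1 apoptosome once cytochrome c has left mitochondria, and effector caspases such as CASP6 then cut cellular substrates. CASP1 is activated by inflammasomes and matures IL-1β and IL-18, whereas CASP4 binds bacterial lipopolysaccharide, and both cut gasdermin D. In monocytes and leukaemia cells of that lineage both inflammatory caspases and CFLAR are commonly expressed.

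The stretch of coding sequence around the active site is shown because its codon for the catalytic residue sets CFLAR apart from the caspases. Each line gives 27 bases, 9 codons, of the reference transcript in GENCODE 29 (GRCh38, plus strand), 5′ to 3′, with the codon at the place of the catalytic cysteine in capitals.
CASP8, chr2:201285079-201285105: tttattcaggctTGTcagggggataac
CASP10, chr2:201209336-201209362: ttcatccaggccTGCcaaggtgaagag
CFLAR, chr2:201160704-201160730: tttattcagaacTATgtggtgtcagag
The CFLAR stretch was placed by the 3 codons that begin it, which encode the same residues as in CASP8. Each caspase stretch was placed by a search for Gln-Ala-Cys, any residue, Gly, so a cysteine at this place was fixed by the search. TGT and TGC are cysteine codons, and the 7 caspase members have TGT (3 genes) or TGC (4 genes) there. CFLAR has TAT, a tyrosine codon. Over the 27 bases CASP10 differed from CASP8 at 9 positions, CASP1 at 10, CASP4 at 11 and CFLAR at 12. The number of differing bases thus does not set CFLAR apart. The counts are per gene, so the long and short forms of CFLAR are not separated in any value below.

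Initiator caspases and CFLAR were higher with 8p, while CASP1 was lower and CASP4 and CASP6 did not pass the test. All 4 initiator caspases rose, by log2 fold changes between 0.72 and 1.24, and CFLAR rose most, by 1.83. CASP1 fell by 0.43 on the log2 scale (the threshold was an adjusted p under 0.05 over all genes tested, in edgeR's quasi-likelihood test). Of the 8 genes 5 were thus higher and 1 lower, for a median log2 fold change of 0.85. Among all genes tested 74.7% passed, 37.9% higher and 36.9% lower, with a median of 0.04, so that a member past the threshold is by itself the usual outcome in these libraries. The values of the groups did not overlap for 7 of the 8 members, against 77.0% of all genes tested. The change was at least 2-fold for 3 called members, CFLAR, CASP10 and CASP9, against 38.4% of all genes tested.

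**Figure D1:**
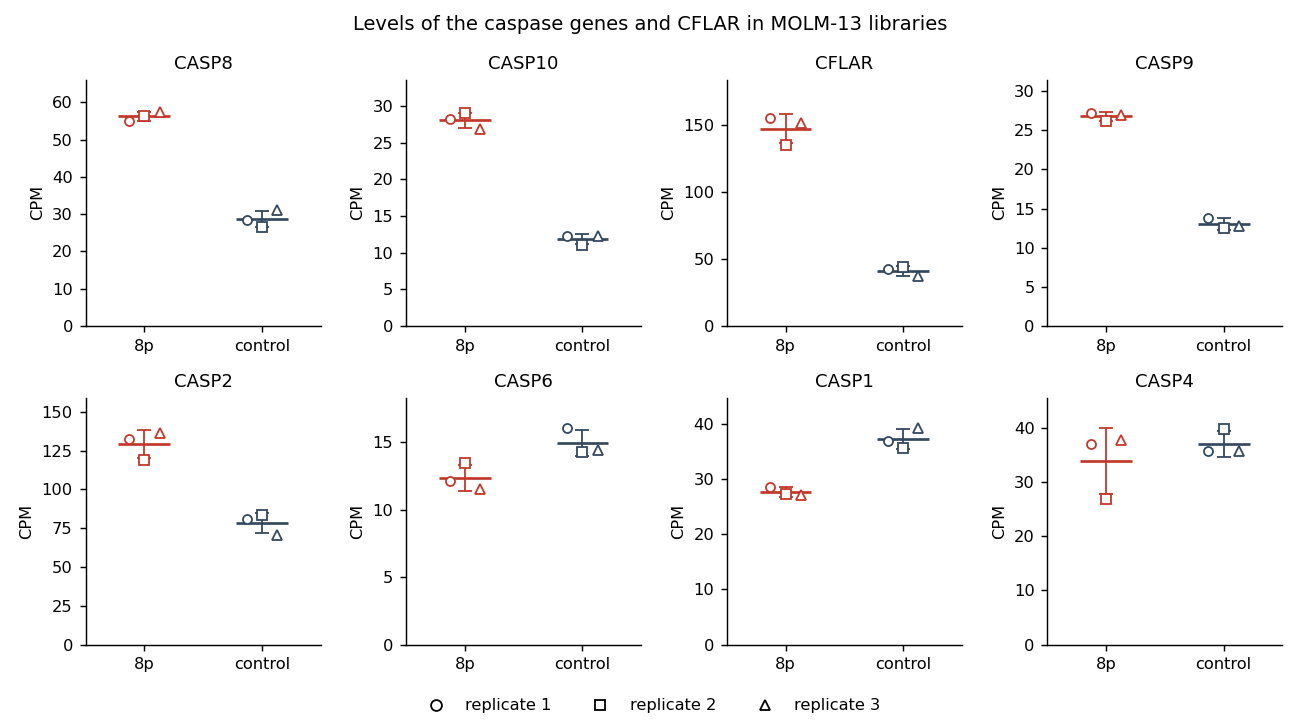
Normalised level of each member in every library, in CPM (vertical axis from 0), with the 8p libraries left of the controls. Points are libraries (symbol by replicate), horizontal lines are means and bars are 1 SD (n = 3). The groups stand clear of each other for CFLAR, CASP10, CASP8, CASP9 and CASP2, and overlap only for CASP4.

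**Figure D2:**
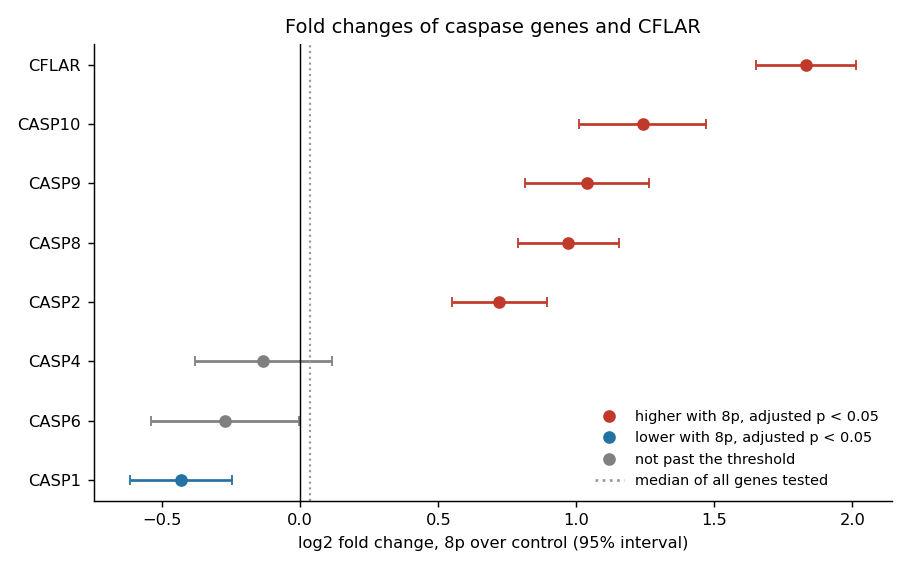
Log2 fold change of each member, 8p over control, with its 95% interval from edgeR (horizontal axis). The dotted line is the median of all genes tested, 0.04. The initiators and CFLAR lie at 0.72 or above, and CASP1 is lowest at −0.43.

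Total counts were 14972069 to 16210861 in the 8p libraries and 18834611 to 23485628 in the control libraries, and the 8 members together held 7047 to 7229 counts per 8p library and 4663 to 6336 per control library. Mitochondrially encoded genes took 6.42% to 10% of counts with 8p and 1.64% to 1.91% in controls. The second principal component (4.61% of variance) placed 8p replicate 2 away from 8p replicates 1 and 3. The 12 listed myeloid markers, of which SPI1 (526 ± 21.5 CPM with 8p and 328 ± 7.78 CPM in controls) and CD33 (69.5 ± 5.71 CPM with 8p and 98.3 ± 6.56 CPM in controls) mark the lineage of the line, summed to 4461 to 5162 CPM with 8p and 1704 to 1823 CPM in controls. Most of that sum was LYZ, with 3732 ± 369 CPM with 8p and 1040 ± 60.03 CPM in controls. Of the 11 that could be tested 7 rose and 3 fell, among them FCGR1A with 8.11 ± 0.685 CPM with 8p and 51.9 ± 2.18 CPM in controls. The 5 B cell genes summed to 1.498 to 2.294 CPM with 8p and 1.476 to 1.687 CPM in controls, with PAX5 at 0 in every library. The 4 erythroid and megakaryocyte genes summed to 1.956 to 3.061 CPM with 8p and 1.197 to 1.897 CPM in controls, with HBB, HBA1 and PF4 at 0. The 5 T and NK cell genes summed to 30.4 to 38.7 CPM with 8p and 21.0 to 24.8 CPM in controls, mostly NKG7 (34.0 ± 4.55 CPM with 8p and 19.8 ± 1.25 CPM in controls). Of the 3 that could be tested NKG7 and GNLY rose and CD3D fell. GNLY had 1.26 ± 0.496 CPM with 8p and 0.160 ± 0.0626 CPM in controls, and CD3D 0.481 ± 0.287 CPM with 8p and 3.01 ± 0.644 CPM in controls. The 6 epithelial and fibroblast genes summed to 31.7 to 42.0 CPM with 8p and 9.74 to 10.3 CPM in controls, with EPCAM and DCN at 0. Of the 3 that could be tested 2 rose and 1 fell. COL1A1 rose, with 31.8 ± 5.99 CPM with 8p and 0.542 ± 0.297 CPM in controls. KRT18, most of the sum in controls, fell, with 3.06 ± 0.410 CPM with 8p and 8.48 ± 0.704 CPM in controls. With mitochondrially encoded genes left out of the fit, no member changed direction or side of the threshold. CFLAR stood at 1.82 and CASP1 at −0.44 on the log2 scale in that fit. It addresses only the effect of the mitochondrial share on scaling. Any other part of that share, and the part of these markers and of depth, in the members' changes was not tested.

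CFLAR (ENSG00000003402, GRCh38 chromosome 2, 201116104 to 201176687, plus strand) had 156, 135 and 152 CPM in 8p replicates 1 to 3, against 42.7, 44.1 and 37.3 CPM in control replicates 1 to 3. CPM, the usual per-million scale of counts, were computed with TMM factors. Every 8p library was above every control, and 8p replicate 2 was the lowest of the treated libraries. The mean was 147 ± 10.9 CPM with 8p and 41.4 ± 3.61 CPM in controls (SD, n = 3 each) and the difference was 3.56-fold, or 1.83 on the log2 scale (SE 0.09, adjusted p = 2.66e-11). In bulk RNA a change in the number of cells that express a gene and a change in RNA per cell cannot be told apart. An antisense gene, CFLAR-AS1, shares 777 exonic bases with CFLAR on the other strand and held 52 counts over the 6 libraries, or 0.548% of the 9483 counts of CFLAR.

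CASP8 (ENSG00000064012, chromosome 2, 201233443 to 201287711, plus strand), the main initiator of death receptor apoptosis, had 54.9, 56.5 and 57.3 CPM in 8p replicates 1 to 3, against 28.5, 26.6 and 31.0 CPM in controls. The 8p values lay close together and above every control. Its mean was 56.2 ± 1.23 CPM with 8p and 28.7 ± 2.20 CPM in controls, 0.97 higher on the log2 scale (SE 0.09, adjusted p = 4.90e-08). CASP10 (ENSG00000003400, chromosome 2, 201182881 to 201229406, plus strand), a related initiator that mice lack, had 28.22, 29.01 and 26.92 CPM with 8p, against 12.31, 11.03 and 12.30 CPM in controls. It averaged 28.0 ± 1.05 CPM with 8p and 11.9 ± 0.737 CPM in controls, 1.24 higher on the log2 scale (SE 0.11, adjusted p = 4.41e-08). The rise was seen in every library of the treated group for both genes.

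CFLAR, CASP10 and CASP8 are neighbours on chromosome 2 in that order, on the same strand, with 6193 bases between CFLAR and CASP10 and 4036 between CASP10 and CASP8. Their log2 fold changes ran 1.83, 1.24 and 0.97 along the chromosome. The nearest tested protein-coding genes on either side did not share this direction: NDUFB3, a respiratory complex I subunit, lay upstream with −0.79 (adjusted p = 1.12e-05), and TRAK2, a mitochondrial transport adaptor, downstream with −0.32 (adjusted p = 0.0203). FAM126B, the next gene upstream of NDUFB3, rose by 0.91 (adjusted p = 1.18e-06), and STRADB had −0.03 (adjusted p = 0.877). On chromosome 11, CARD16 is the nearest tested gene beyond CASP1, and it had −0.31 (adjusted p = 0.173).

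**Figure D3:**
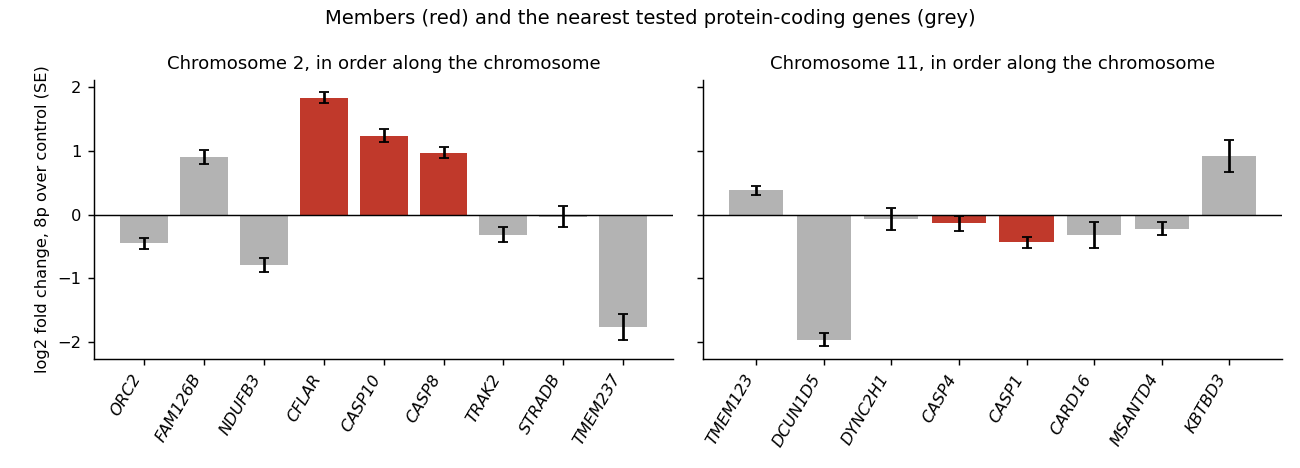
Log2 fold change, 8p over control (vertical axis, bars are fitted values and whiskers SE), of the caspase genes on chromosomes 2 and 11 (red) and of the nearest tested protein-coding genes (grey), in chromosomal order. CFLAR, CASP10 and CASP8 stand at 1.83, 1.24 and 0.97 between NDUFB3 at −0.79 and TRAK2 at −0.32.

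Because these genes rose together, the sequences at the starts of the outer genes are shown, each with 250 bases before and 20 after a RefSeq start (GRCh38.p14, plus strand), 5′ to 3′, with motif matches in capitals.
CFLAR, chr2:201118466-201118735: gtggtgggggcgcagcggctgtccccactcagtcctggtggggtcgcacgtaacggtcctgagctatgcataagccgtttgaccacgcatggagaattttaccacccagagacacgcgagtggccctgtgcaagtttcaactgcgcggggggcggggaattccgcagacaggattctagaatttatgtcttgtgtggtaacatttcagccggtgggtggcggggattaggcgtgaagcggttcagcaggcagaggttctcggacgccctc
CASP8, chr2:201233213-201233482: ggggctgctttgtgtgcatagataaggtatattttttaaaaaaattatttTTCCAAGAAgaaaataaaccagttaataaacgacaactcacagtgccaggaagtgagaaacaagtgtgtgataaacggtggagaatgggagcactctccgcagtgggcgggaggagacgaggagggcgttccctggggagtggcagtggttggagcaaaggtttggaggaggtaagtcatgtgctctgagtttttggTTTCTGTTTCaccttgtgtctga
The RefSeq windows used held 4 for CFLAR and 3 for CASP8, and 6 of the 8 members had at least 1. No window was available for CASP10 or CASP1, so the start of CASP10 was not searched. The motifs searched on both strands were CACGTG (a MYC E-box), TTCNNNGAA (STAT), GTAAACA (FOXO), the IRF element (GAAA, any 2 bases, GAAA), TTTGGCGC (E2F) and the NF-κB site. The CASP8 window held a STAT and an IRF match, which do not overlap, and the CFLAR window held none. Of 34792 windows of the same length 7.06% held the STAT motif and 3.30% the IRF motif. No other window of the 6 members held a match. The CFLAR window was 59.3% G and C with 19 CG pairs, and the CASP8 window 45.6% with 6 CG pairs, against medians of 58.1% and 12 over all windows. A match is a description of letters in the window and not a bound site.

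CASP9 (ENSG00000132906, chromosome 1, 15490832 to 15526534, minus strand) had 27.2, 26.1 and 26.9 CPM in 8p replicates 1 to 3, against 13.8, 12.5 and 12.7 CPM in controls. The libraries of each group lay close together. It averaged 26.8 ± 0.563 CPM with 8p and 13.01 ± 0.718 CPM in controls, 1.04 higher on the log2 scale (SE 0.11, adjusted p = 2.84e-07). CASP2 (ENSG00000106144, chromosome 7, 143288215 to 143307696, plus strand), which is activated with PIDD1 and CRADD after DNA damage or surplus centrosomes, had 133, 119 and 136 CPM with 8p, against 81.0, 83.2 and 71.0 CPM in controls. It averaged 129 ± 9.17 CPM with 8p and 78.4 ± 6.54 CPM in controls, 0.72 higher on the log2 scale (SE 0.08, adjusted p = 8.66e-07). Its 8p replicate 2 was the lowest treated library, as for CFLAR, and still lay above every control.

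CASP6 (ENSG00000138794, chromosome 4, 109688622 to 109703583, minus strand), an effector best known for cutting lamin A, had 12.11, 13.42 and 11.54 CPM in 8p replicates 1 to 3, against 16.06, 14.30 and 14.42 CPM in controls. The highest 8p value lay just below the lowest control value. The log2 fold change was −0.27 (SE 0.13, 95% interval −0.54 to −0.0042), with an adjusted p of 0.0619. Without 8p replicate 2 it was −0.37 and passed the threshold (adjusted p = 0.0200), as it did with DESeq2 size factors (adjusted p = 0.0481) and with no filter on low counts (adjusted p = 0.0156). Under upper quartile factors it was −0.085 (adjusted p = 0.545). MCUB, a mitochondrial calcium uniporter gene on the other strand, shares 105 exonic bases with CASP6 and held 3692 counts over the 6 libraries against 1529 for CASP6. MCUB itself stood at −0.25 on the log2 scale (adjusted p = 0.0361). Whether reads were counted by strand is not stated, so the value of CASP6 is uncertain for that overlap.

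CASP1 (ENSG00000137752, chromosome 11, 105025443 to 105035250, minus strand) had 28.7, 27.3 and 27.1 CPM in 8p replicates 1 to 3, against 37.0, 35.8 and 39.3 CPM in controls. All treated libraries were below all controls. It averaged 27.7 ± 0.849 CPM with 8p and 37.4 ± 1.80 CPM in controls, with a log2 difference of −0.43 (SE 0.09, adjusted p = 3.52e-04). Under upper quartile factors it was −0.24 (adjusted p = 0.0190). CASP4 (ENSG00000196954, chromosome 11, 104942866 to 104969436, minus strand) had 37.0, 26.8 and 37.7 CPM with 8p, against 35.7, 39.8 and 35.7 CPM in controls. Only 8p replicate 2 lay below the controls, and the groups overlapped. The log2 fold change of CASP4 was −0.13 (SE 0.12, 95% interval −0.38 to 0.12, adjusted p = 0.310), and −0.02 without 8p replicate 2. Its direction was not the same under every scaling, with 0.054 under upper quartile factors. CASP1 and CASP4 belong to a cluster of similar genes and can share reads with CARD16, CASP5 and the pseudogenes nearby, so their levels are uncertain to that extent. CARD16, which lacks the protease domain of CASP1 and can act as a decoy, averaged 3.99 ± 0.397 CPM with 8p and 4.98 ± 0.750 CPM in controls. CASP5 had 1 count in 8p replicate 1 and 1 in control replicate 2, while CASP12, CASP14, CARD17 and CARD18 had none.

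Ratios of counts within a library do not depend on how libraries are scaled. For CFLAR over CASP8 the count ratio was 2.834, 2.393 and 2.643 in 8p replicates 1 to 3, against 1.498, 1.656 and 1.202 in controls. The mean log2 ratio was 1.39 ± 0.123 with 8p and 0.53 ± 0.237 in controls, so the ratio was 1.82-fold higher with 8p. CFLAR over CASP10 was 1.51-fold higher, with mean log2 ratios of 2.39 ± 0.150 with 8p and 1.80 ± 0.200 in controls. CASP10 over CASP8 was 1.2-fold higher, with −1.003 ± 0.075 with 8p and −1.271 ± 0.062 in controls. CASP9 over APAF1, the scaffold that activates it, was 2.02-fold higher, with −1.33 ± 0.063 with 8p and −2.35 ± 0.076 in controls. The groups did not overlap for any of these ratios, and each had a two-sided exact permutation p of 0.1, the smallest that 3 against 3 libraries allow (0.125 after Benjamini-Hochberg adjustment over the 5 ratios computed). CASP1 over CASP4 overlapped between groups, with −0.27 ± 0.263 with 8p and 0.01 ± 0.151 in controls (exact permutation p = 0.2, adjusted 0.2). Of the counts of CFLAR, CASP10 and CASP8 together, CFLAR took 63.6% ± 2.06 with 8p and 50.4% ± 3.89 in controls, and CASP8 took 24.3% ± 1.30 with 8p and 35.1% ± 3.07 in controls (SD, n = 3). These ratios and shares use counts not divided by gene length, so they do not rank the genes by level. Only their change between the groups can be read.

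**Figure D4:**
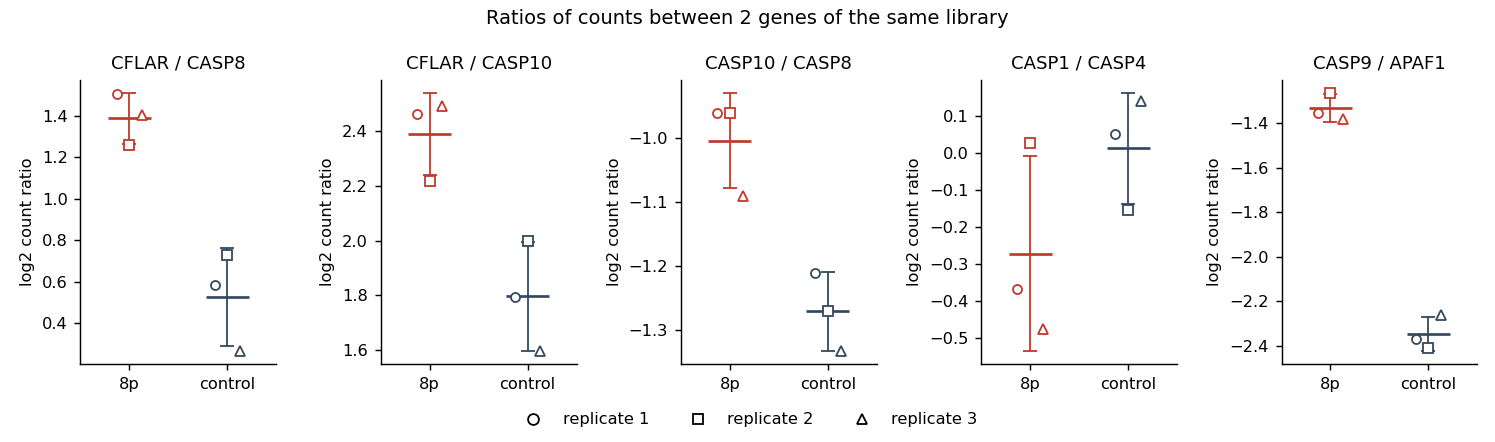
Log2 ratio of the counts of 2 genes in the same library (vertical axis, a different range in each panel), with 8p left of control. Points are libraries, lines are means and bars 1 SD (n = 3). CFLAR / CASP8 and CASP9 / APAF1 are separated most, at 1.39 against 0.53 and at −1.33 against −2.35, and CASP1 / CASP4 overlaps.

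Levels of different genes are compared per length, as CPM per kilobase of the deposited gene length. In the 8p libraries the order was CASP2 (16.1 ± 1.14), CASP8 (7.76 ± 0.170), CASP1 (7.49 ± 0.230), CFLAR (6.55 ± 0.482), CASP6 (6.36 ± 0.498), CASP9 (5.08 ± 0.107), CASP4 (4.67 ± 0.838) and CASP10 (3.69 ± 0.139). In controls the order was CASP1 (10.1 ± 0.487), CASP2 (9.77 ± 0.815), CASP6 (7.68 ± 0.507), CASP4 (5.11 ± 0.327), CASP8 (3.96 ± 0.303), CASP9 (2.47 ± 0.136), CFLAR (1.84 ± 0.160) and CASP10 (1.56 ± 0.0969). With 8p the libraries of CASP8 and CASP1, of CFLAR and CASP6, of CASP9 and CASP4, and of CASP4 and CASP10 overlapped, and in controls those of CASP1 and CASP2 did. The order depends on the lengths used. That of CFLAR is 22529 bases in the table over 25 annotated transcripts, 5 of them with retained introns. With the median length of each gene's basic coding transcripts, 1646 bases for CFLAR, CFLAR had 89.6 ± 6.60 CPM per kilobase with 8p and 25.1 ± 2.19 in controls, first among the 8 with 8p and second after CASP1 (35.2 ± 1.70) in controls. With these lengths CASP6 was last with 8p (9.17 ± 0.718) and below CASP8 in controls (11.1 ± 0.731), and CASP2 came after CFLAR with 8p (32.3 ± 2.29) and after CASP4 in controls (19.6 ± 1.63). These lengths were chosen after the data were seen.

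The genes whose profile over the 6 libraries lay closest to CFLAR, the member with the largest rise, were LYZ, RUNX2 and CHI3L1, at a root mean square difference of 0.04, 0.04 and 0.06 in centred log2 CPM. LYZ encodes lysozyme of myeloid cells, and its log2 fold change was 1.84. For CASP1, the member with the largest fall past the threshold, the closest were CLTA, ESS2 and ACP1 at 0.02, 0.02 and 0.03. With 2 groups of 3 this likeness is mostly that of the group difference.

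Genes of the surrounding pathways moved in both directions. The counts in each list stand against 74.7% of all genes tested past the threshold, 37.9% higher and 36.9% lower, and a list with a like share does not stand apart from that background. Of the 13 tested death receptor genes (16 listed) 6 rose and 6 fell, for a median log2 fold change of 0.19. The TRAIL receptor gene TNFRSF10B rose to 191 ± 5.22 CPM with 8p, against 92.6 ± 6.99 CPM in controls (1.05, adjusted p = 2.88e-09), while its paralog TNFRSF10A fell to 9.61 ± 2.02 CPM with 8p, against 25.4 ± 4.41 CPM in controls (−1.40, adjusted p = 1.31e-06). TRAF2, a ubiquitin ligase of TNF receptor complexes, fell by 1.26 on the log2 scale. FADD, the adaptor that binds CASP8, had 9.88 ± 2.18 CPM with 8p and 14.6 ± 1.24 CPM in controls (−0.56, adjusted p = 0.00470, and −0.37 under upper quartile factors, adjusted p = 0.0420), and RIPK1, a kinase that CASP8 cuts, had 74.1 ± 2.88 CPM with 8p and 39.3 ± 0.313 CPM in controls (0.92, adjusted p = 2.39e-08). The direction of the members that bind FADD was thus opposite to that of FADD.

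Of the 6 mitochondrial pathway genes none passed the threshold as higher and 4 fell, with a median of −0.79. DIABLO, not past the threshold at 0.68 (adjusted p = 0.123), had only 15 to 34 counts per library under the identifier used. CYCS, which encodes cytochrome c, had 84.7 ± 2.29 CPM with 8p and 420 ± 42.0 CPM in controls (−2.31, adjusted p = 1.16e-12). AIFM1 fell by 1.27 and ENDOG, a mitochondrial nuclease, by 0.84 on the log2 scale. APAF1 had 67.5 ± 4.17 CPM with 8p and 66.4 ± 5.23 CPM in controls, with overlapping groups (0.02, adjusted p = 0.817, with a direction that changed among the alternatives and 0.21 under upper quartile factors, adjusted p = 0.0325). In the PIDDosome, PIDD1 rose by 0.48 (adjusted p = 0.00119), or by 0.31 without 8p replicate 2 (adjusted p = 0.0107), and CRADD fell by 0.49 (adjusted p = 0.0112), a call lost under upper quartile factors (−0.30, adjusted p = 0.0949).

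Of the 7 tested inhibitors of apoptosis and their antagonists (8 listed) 5 rose and 1 fell, with a median of 0.44. XIAP, a direct inhibitor of CASP9 and of effector caspases, had 34.1 ± 1.77 CPM with 8p and 25.1 ± 1.82 CPM in controls (0.44, adjusted p = 5.86e-04). BIRC5, or survivin, which also serves in mitosis, fell to 19.6 ± 1.83 CPM with 8p, against 149 ± 11.9 CPM in controls (−2.92, adjusted p = 4.96e-13). NAIP rose by 2.86 on the log2 scale (adjusted p = 1.61e-07), and near-identical NAIP copies in the genome make its count uncertain. BIRC3 rose by 2.27 (adjusted p = 0.00777) at only 1.06 ± 0.741 CPM with 8p and 0.210 ± 0.210 CPM in controls, and without 8p replicate 2 it was 1.48 and no longer past the threshold (adjusted p = 0.0778). Without control replicate 2 its value was 3.11.

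Of the 13 tested inflammasome and pyroptosis genes (16 listed) 9 rose and 1 fell, with a median of 1.00. NINJ1, which ruptures the plasma membrane late in lytic death, had 44.2 ± 2.46 CPM with 8p and 10.3 ± 0.564 CPM in controls (2.09, adjusted p = 3.47e-11). GSDMD, the pore-forming substrate of both inflammatory caspases, had 91.2 ± 12.2 CPM with 8p and 42.3 ± 4.39 CPM in controls (1.11, adjusted p = 8.40e-08). NLRC4, the inflammasome partner of NAIP, rose by 1.83. IL1B rose by 1.86 at low levels, 0.935 ± 0.250 CPM with 8p and 0.247 ± 0.0794 CPM in controls. PYCARD, the adaptor that links sensors to CASP1, fell by 0.42 on the log2 scale (adjusted p = 1.25e-04), as CASP1 did, and stood at −0.23 under upper quartile factors (adjusted p = 0.0121). Of 3 tested necroptosis genes, the kinase gene RIPK3 rose by 0.76 and the deubiquitinase gene CYLD by 1.53, while MLKL, the executioner, fell by 0.98 (adjusted p = 1.45e-06).

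Of 9 caspase substrates and nucleases 1 rose and 5 fell, with a median of −0.51. PARP1, a DNA repair enzyme cut in apoptosis, fell by 1.80 and the lamin gene LMNB2 by 1.97 on the log2 scale. DFFB, the nuclease that cuts DNA in apoptosis, fell by 1.14.

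**Figure D5:**
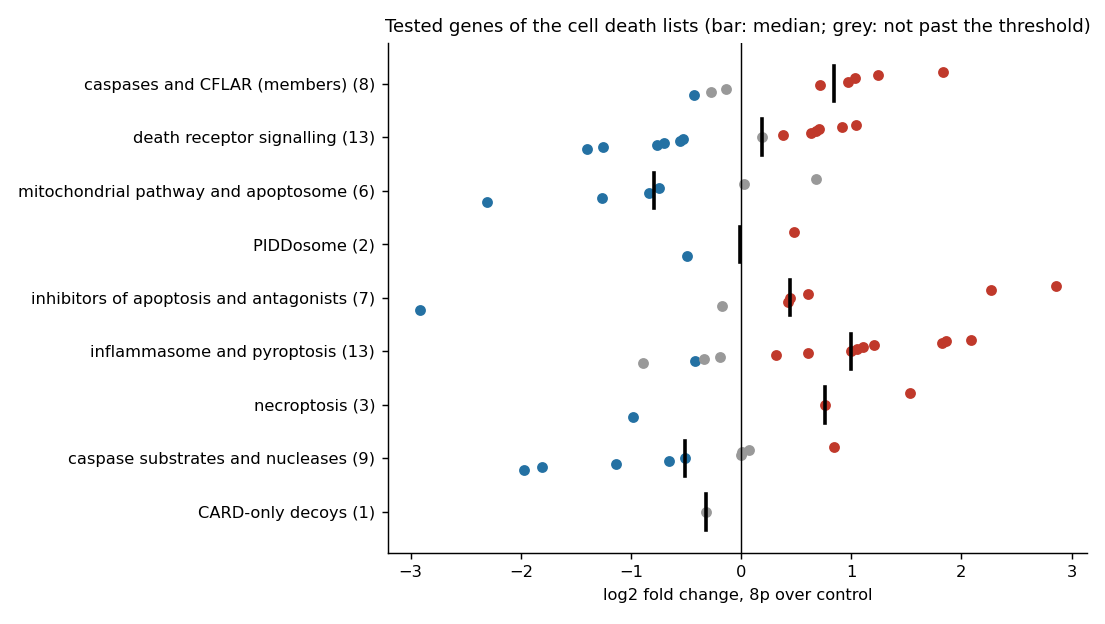
Log2 fold change, 8p over control (horizontal axis), of every tested gene in each list (number tested in parentheses), with genes past the threshold in red (higher) or blue (lower) and others in grey. The black bar is the list median, from −0.79 for the mitochondrial pathway to 1.00 for inflammasome genes, and 0.85 for the 8 members.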

How the data were processed

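Raw read counts per gene were deposited by the authors for 6 libraries; per the submitters' processing notes, the tools named were edgeR 3.22.5 and DESeq2 1.20.0, HISAT2 2.0.5 and featureCounts 1.5.0-p3, with build hg38. The labels' protocols name poly(A) capture or removal of ribosomal RNA, without saying which, and describe extraction for DNA only. Gene lengths are those of the deposited table.

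Counts were tested in R 4.3.3 with edgeR 4.0.16 (quasi-likelihood, TMM, filterByExpr, group as the only term) over all genes, with Benjamini-Hochberg adjustment and a threshold of 0.05. The standard error is the fold change divided by the square root of F. No spike-in is recorded, so a fold change is a change in share of the library. Intervals are 95%. Ratios used a pseudocount of 0.5 count. Alternatives included DESeq2 1.42.0 and limma-voom (limma 3.58.1). The fit was also run on simulated counts in which far fewer genes changed than here, so that run does not test the scaling of these libraries. The members, lists and tests were chosen with earlier results of these data known. The text names all members, up to 3 called genes per list with the largest change, and 9 genes whatever their result (FADD, APAF1, CYCS, PIDD1, XIAP, PYCARD, GSDMD, RIPK1, MLKL); some further genes are not reported here. DIABLO has 2 identifiers in the table, and the one matching the current symbol table was used. The design text calls the replicates independent biological ones without naming cultures or dates; p-values measure the spread between these libraries. No pair of replicates agreed within sampling noise.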

Additional observations from a re-analysis of the deposited data

How the results depend on the processing

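Of 120 alternative values of the 8 members 115 kept their direction and side of the threshold, and all 48 alternative counts of called genes lay within 1.5 times the main count. All 35 alternative values of the count ratios kept their direction; with so few libraries none could reach the threshold. The calls of CASP8, CASP10, CFLAR, CASP9, CASP2 and CASP1 held under all 15 alternatives each. CASP6 passed the threshold with DESeq2 size factors (−0.29) and with no filter on low counts (−0.39), stood at −0.085 under upper quartile factors, and ran from −0.37 to −0.24 with 1 library left out. CASP1 ranged from −0.55 to −0.24 over all alternatives. CASP4 was 0.054 under upper quartile factors and −0.25, past the threshold, with no filter, and ran from −0.24 to −0.02 with 1 library left out. Upper quartile factors moved the median fold change of all genes by 0.187 and no filter moved it by −0.116. APAF1 was −0.094 with no filter, −0.043 with DESeq2 and, with 1 library left out, from −0.057 to 0.056. Of 388 alternative values of the other named pathway genes 379 kept their direction and call. The replicate numbers did not pair the libraries (correlations of −0.0071, −0.0181 and −0.0432 between same-numbered deviations), and with the replicate block 10090 genes passed against 10330 without it; CFLAR stood at 1.83 in that fit, and no member's call changed. Depth limits CASP6 most among the members, at 171 to 224 counts per 8p library.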
